A study of Mus musculus with 6 samples.

Results

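Lungs of 4 mice injected with tumour-conditioned medium were compared with lungs of 2 mice injected with plain medium, so that every tested transcript could be asked whether both media moved it the same way. All 6 lungs of the series entered the comparison. The animals were C57BL/6 mice aged 8 weeks that received 100 uL of medium into the peritoneal cavity every day for 7 days. The LN4 lungs (replicates 1 and 3) came from mice given medium conditioned by PC3M-LN4 cells, a metastatic derivative of the human prostate cancer line PC3. The PC3 lungs (replicates 4 and 5) came from mice given medium conditioned by PC3 cells. The Control lungs (replicates 2 and 4) came from mice given RPMI, the culture medium itself. No tumour cells were injected, and each lung gave 1 array. Values are log2 RMA values, on which a difference of 1 is a doubling, and a change is the mean of the LN4 and PC3 means minus the Control mean, with the standard error (SE) of a limma fit. The study is known to have asked whether secreted tumour factors prepare the lung for metastasis or make it resist.

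Tumour cells release proteins, lipids and vesicles that reach distant organs before any tumour cell does. In the lung such factors are known to act on endothelium, fibroblasts, resident immune cells and recruited marrow cells, and the altered tissue is called a premetastatic niche. Stress hormones are a separate route by which an injected animal's lung can respond: cortisol-like steroids bind the glucocorticoid receptor, which switches on a small set of target genes such as Fkbp5. Immediate early genes, including Fos, Egr1 and Nr4a1, are transcribed within minutes of almost any stimulus and fall again soon after.

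A gene was called separated when all 4 conditioned-medium arrays lay above, or all 4 below, both Control arrays. Of 17011 tested genes, 621 were separated above (3.65%) and 706 below (4.15%). Among the 21330 tested probe sets, 718 (3.37%) lay above and 904 (4.24%) below. These shares are the yardstick for every count below. The order of the arrays alone separates some genes, so a separated gene is not by itself a response to the media. Leaving out an array can add separated genes but cannot remove any, so counts given without an array could not fall. In the limma fit 0 probe sets (0.0%) reached an adjusted p of 0.05, the lowest being 0.9998. Before adjustment 249 were under 0.05, a share (1.17%) smaller than that threshold lets through on average where no group differs. Of these, 73 were higher and 176 lower in conditioned-medium lungs. Without LN4 replicate 1, where LN4 replicate 3 alone stood for its group, 427 probe sets passed, 375 higher and 52 lower. With all arrays no gene named here passed the test, and values are given as a description. The median change over all tested genes was 0.01. At the edge of the rule, Msln was inside the rule by 0.0011 and Id2 by 0.0018, whereas Hk1 was outside it with a gap of -0.00046 and Klf2 with a gap of -0.0048.

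The arrays did not differ by group alone. All 14 lung markers, from surfactant to endothelial genes, stood above the 95th percentile of the negative control probe sets in all 6 arrays, but markers of other tissues were high in some. The summed linear level of 7 squamous epithelium markers (none above that percentile in every array) was 279 and 40700 in LN4 replicates 1 and 3, 3481 and 217 in PC3 replicates 4 and 5, and 238 and 216 in Control replicates 2 and 4. That of 5 skeletal muscle markers, again none above the percentile in every array, was 10420 in LN4 replicate 3 and between 318 and 378 in the others. That of 5 mesothelial markers was 2036 and 2390 in LN4, 4582 and 2665 in PC3, and 1730 and 1980 in Control lungs. Each group also held 1 array with a lower share of detected probe sets (35.4% to 39.8%) and 1 with a higher share (46.1% to 50.9%). These arrays are compared separately below as the low-detection pair-up (LN4 replicate 1 and PC3 replicate 4 against Control replicate 2) and the high-detection one (LN4 replicate 3 and PC3 replicate 5 against Control replicate 4).

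**Figure D1:**
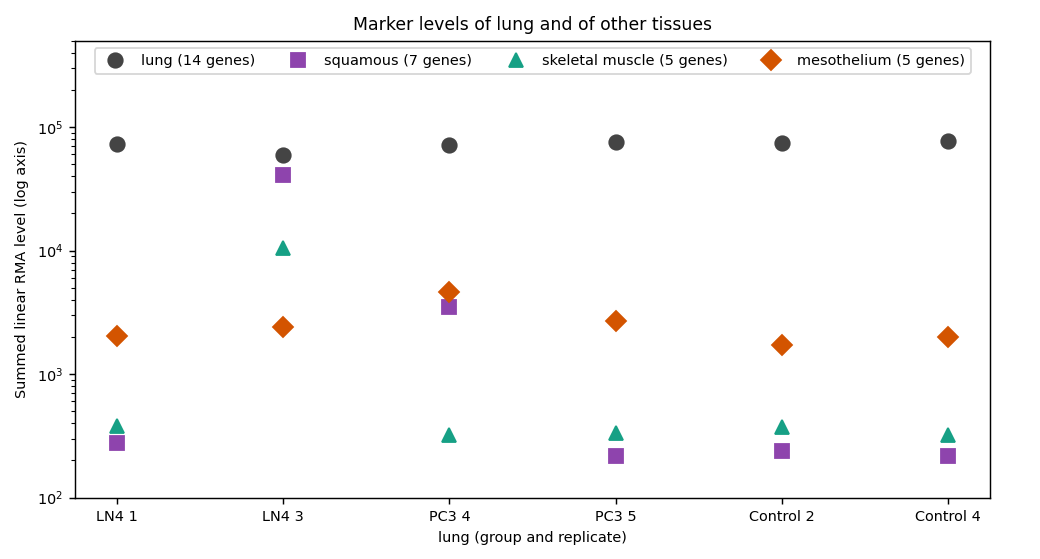
Summed linear RMA level (log axis) of lung, squamous, skeletal muscle and mesothelial markers in each of the 6 lungs, 1 point per lung and marker set. Squamous markers reach 40700 in LN4 replicate 3 and 3481 in PC3 replicate 4, against 216 to 279 in the other 4 lungs.

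The genes that stood farthest above the Control arrays were targets of the glucocorticoid receptor. Zbtb16, a zinc finger repressor (probe set 10593225), was at 9.62 and 9.34 in LN4 lungs, 8.999 and 9.15 in PC3 lungs, and 8.27 and 8.32 in Control lungs. The nearest arrays were 0.68 apart, the largest gap above Control among genes over background, and the change was 0.98 (SE 0.16), or 1.98-fold. Fkbp5, a co-chaperone that dampens the receptor (probe set 10449452), was at 8.12 and 8.61 in LN4, 8.04 and 8.17 in PC3, and 7.21 and 7.51 in Control lungs. Its change was 0.88 (SE 0.20), or 1.84-fold, and it was 0.88 in both detection pair-ups. For both genes the 4 conditioned-medium lungs were high with no overlap, and LN4 minus PC3 was 0.40 (SE 0.19) and 0.26 (SE 0.23).

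Of 25 glucocorticoid response genes tested, 6 were separated above (24%, against 3.65% of all genes) and 1 below. The median change was 0.22, with 0.28 in LN4 and 0.17 in PC3 lungs against the same Control arrays. Tat, tyrosine aminotransferase, a classic steroid-induced enzyme, was at 6.92 and 6.86 in LN4, 7.38 and 6.37 in PC3, and 6.14 and 5.94 in Control lungs, all under the percentile of the negative controls. Fam107a differed by 0.51 (SE 0.22) and the growth arrest gene Gadd45g by 0.28 (SE 0.18). Cdkn1a, the p21 cell cycle inhibitor, was at 9.85 in LN4 replicate 3 and between 7.63 and 7.82 in the other 3 conditioned-medium lungs, against 7.44 and 7.35 in Control lungs. The array at 9.85 is the one with squamous and muscle genes, and without it Cdkn1a differed by 0.31. The member below was Hsd11b1, the enzyme that regenerates active glucocorticoid inside cells, at 8.01 and 7.90 in LN4, 8.04 and 8.42 in PC3, and 8.51 and 8.76 in Control lungs.

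Other well known targets were not separated. Tsc22d3, which encodes the anti-inflammatory protein GILZ, was at 9.41 and 8.97 in LN4, 9.19 and 9.28 in PC3, and 8.76 and 9.21 in Control lungs, so the groups overlapped. Klf9 lay between 9.0 and 9.31 in conditioned-medium lungs, against 8.65 and 9.06 in Control lungs. Per1 differed by -0.20 (SE 0.24). The median of the list was 0.34 in the low-detection pair-up and 0.08 in the high-detection one, and it was 0.04 without Control replicate 2 and 0.29 without Control replicate 4. When both lungs with squamous genes (LN4 replicate 3, PC3 replicate 4) were set aside it was 0.27, with 10 of 25 above, where 9.54% of all genes are.

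Clock genes, which keep daily time in the lung and respond to glucocorticoids, were separated in both directions. Of 21 tested, 4 lay above Control (19.0%, against 3.65% of all genes) and 2 below (9.52%, against 4.15%). Cry1, a repressor of the clock, differed by 0.35 (SE 0.16), the nuclear receptor Rora by 0.33 (SE 0.19; 0.20 without LN4 replicate 3), and Arntl, the Bmal1 gene, by 0.21 (SE 0.15). Neither Cry1 nor Arntl stood above background. Dbp, an output factor, was at 9.79 and 9.64 in LN4, 9.67 and 9.60 in PC3, and 9.90 and 9.93 in Control lungs. Nr1d1, the repressor REV-ERB alpha, differed by -0.31 (SE 0.17). These steps were small, and the median change of the list was 0.06. At what hour each lung was taken is not known here.

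**Figure D2:**
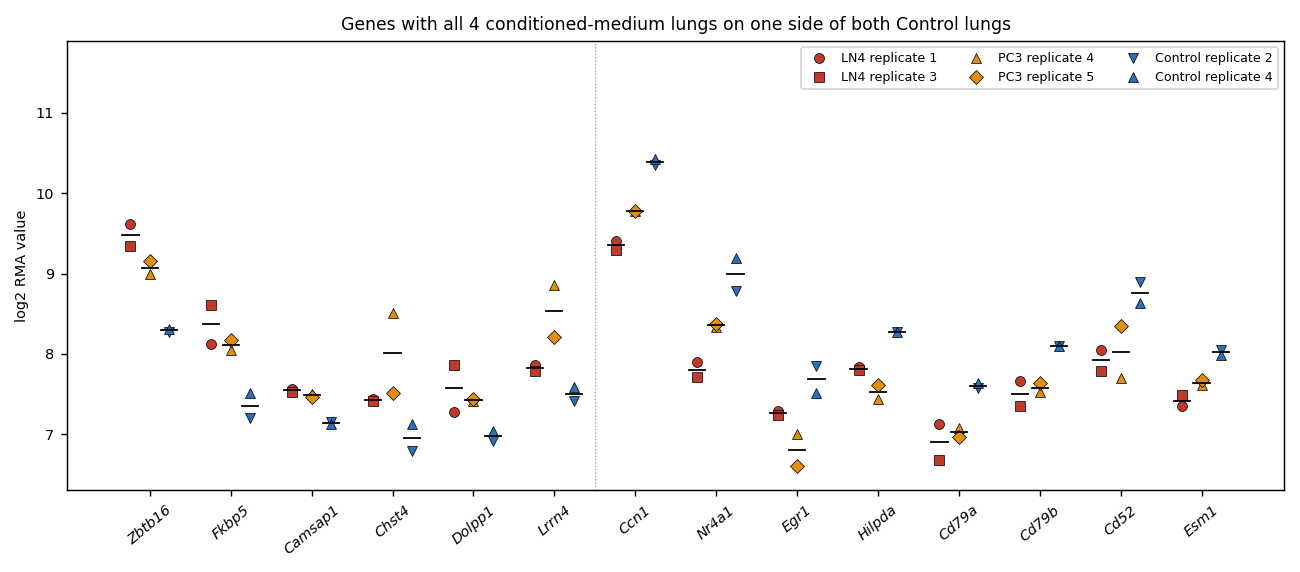
The log2 RMA value of 14 separated genes in each lung, with LN4, PC3 and Control lungs side by side from left to right, 1 symbol per lung and a bar at each group mean of 2 lungs. Left of the dotted line all 4 conditioned-medium lungs lie above both Control lungs (Zbtb16 by at least 0.68), and right of it below (Ccn1 by at least 0.58).

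The largest gap below Control among genes over background was that of Ccn1, a secreted matrix protein also called CYR61 that is induced by serum, YAP and TGF-beta. It was at 9.40 and 9.30 in LN4, 9.78 and 9.78 in PC3, and 10.36 and 10.43 in Control lungs, a change of -0.83 (SE 0.15), 1.78-fold lower. The nearest arrays were 0.58 apart, and LN4 minus PC3 was -0.43 (SE 0.17, adjusted p = 0.842 in the limma fit). In the TGF-beta, CCN and YAP target list, Ccn1 included, 3 of 30 lay below (10.0%, against 4.15% of all genes) and 0 above. The median change was -0.06, with -0.18 in LN4 and 0.05 in PC3 lungs against the same Control arrays. The other members below were Ltbp2, a latent TGF-beta binding protein, at -0.28 (SE 0.19; -0.16 without LN4 replicate 3), and Id2 at -0.38 (SE 0.19).

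Immediate early genes had 8 of 35 tested members separated below (22.9%, against 4.15% of all genes) and 3 above. Nr4a1, an orphan nuclear receptor, was at 7.90 and 7.71 in LN4, 8.34 and 8.37 in PC3, and 8.79 and 9.20 in Control lungs, a change of -0.91 (SE 0.18). Egr1, a zinc finger factor, was at 7.28 and 7.24 in LN4, 7.00 and 6.60 in PC3, and 7.85 and 7.52 in Control lungs. The order of the 2 media differed between these genes: LN4 lungs were lower than PC3 lungs for Nr4a1 and higher for Egr1, by -0.55 (SE 0.21) and 0.46 (SE 0.22), neither past the adjusted threshold (0.842 for both in the limma fit). Atf3, a stress-induced repressor that was under background, differed by -0.53 (SE 0.15) and Rgs2, which restrains G protein signalling, by -0.51 (SE 0.18).

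Fos and Jun, which pair to form the AP-1 factor, were both among the separated members. Fos was at 7.17 and 7.23 in LN4, 7.51 and 7.17 in PC3, and 7.73 and 7.56 in Control lungs. Jun was at 9.48 and 9.44 in LN4, 9.58 and 9.73 in PC3, and 9.88 and 9.85 in Control lungs. Ier3 and Ier2 completed the set at -0.42 (SE 0.16) and -0.22 (SE 0.15). The members above were Gadd45b at 0.24 (SE 0.15), Ier5 at 0.13 (SE 0.15) and Myc, which was under background. Myc was at 8.74 in LN4 replicate 3 and between 6.68 and 6.72 in the other conditioned-medium lungs, against 6.38 and 6.56 in Control lungs, and without that lung Myc differed by 0.24 and Ier5 by 0.09. Dusp1, a MAP kinase phosphatase, was not separated, at 10.18 and 10.12 in LN4, 10.96 and 11.19 in PC3, and 10.70 and 11.07 in Control lungs. The list's median change was -0.14, with -0.02 in the low-detection and -0.20 in the high-detection pair-up. Without LN4 replicate 3 and PC3 replicate 4, 9 of 35 lay below, where the share over all genes is 8.8%.

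The upstream sequence of 4 of these genes is shown because Nr4a1, Fos, Rgs2 and Ccn1 lay below Control together and are textbook targets of the cAMP-responsive factor CREB or of serum. Each line holds the 250 bases before the start site, from RefSeq on GRCm38.p6, read 5′ to 3′ on the gene's own strand, with the CREB half-site TGACG or its reverse complement in capitals.
Nr4a1 (chr15:101266596-101266845, plus strand): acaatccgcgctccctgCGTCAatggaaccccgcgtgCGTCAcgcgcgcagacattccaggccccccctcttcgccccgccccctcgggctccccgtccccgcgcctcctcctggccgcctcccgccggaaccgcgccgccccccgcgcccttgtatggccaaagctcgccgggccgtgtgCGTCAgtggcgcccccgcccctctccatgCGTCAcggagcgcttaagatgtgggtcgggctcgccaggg
Fos (chr12:85473640-85473889, plus strand): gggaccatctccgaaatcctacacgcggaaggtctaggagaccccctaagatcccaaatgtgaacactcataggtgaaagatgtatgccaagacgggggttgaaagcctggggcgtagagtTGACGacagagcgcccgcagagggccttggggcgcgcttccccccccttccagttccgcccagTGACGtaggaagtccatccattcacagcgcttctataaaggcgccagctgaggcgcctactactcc
Rgs2 (chr1:144004150-144004399, minus strand): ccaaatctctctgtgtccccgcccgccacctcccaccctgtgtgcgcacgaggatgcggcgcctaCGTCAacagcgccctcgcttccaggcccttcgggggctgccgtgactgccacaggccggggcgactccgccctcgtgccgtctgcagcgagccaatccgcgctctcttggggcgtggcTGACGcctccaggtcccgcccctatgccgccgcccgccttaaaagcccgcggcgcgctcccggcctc
Ccn1 (chr3:145649986-145650235, minus strand): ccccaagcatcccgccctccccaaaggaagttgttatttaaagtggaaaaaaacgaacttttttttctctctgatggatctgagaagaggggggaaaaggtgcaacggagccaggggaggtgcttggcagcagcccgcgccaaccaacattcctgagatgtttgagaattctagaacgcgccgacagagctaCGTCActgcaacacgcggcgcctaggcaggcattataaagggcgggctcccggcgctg
The motif stood 4 times in the Nr4a1 window, 2 times in those of Fos and Rgs2 and 1 time in that of Ccn1, and 17.8% of all 32851 windows of this length held it. Among the immediate early genes with a window, it was found for 4 of 6 separated below (Nr4a1, Fos, Rgs2 and Atf3, but not Jun or Ier3) and for 13 of 22 others. Ier5 and Gadd45b, the members above Control with a window, held 0 matches.

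B cell genes held the highest share of separated members among the 41 lists. Of 24 tested, 10 lay below (41.7%, against 4.15% of all genes) and 0 above, and 23 had lower means, with a median change of -0.42. Only 5 of the 24 stood above background. The antigen receptor chain Cd79a was at 7.13 and 6.68 in LN4, 7.08 and 6.97 in PC3, and 7.57 and 7.64 in Control lungs, a change of -0.64 (SE 0.18). Its partner Cd79b was at 7.66 and 7.35 in LN4, 7.52 and 7.64 in PC3, and 8.09 and 8.10 in Control lungs, a change of -0.55 (SE 0.16). For both chains LN4 replicate 3 was the lowest lung and the Control lungs stood close together. Fewer B cells and less of each RNA per cell cannot be told apart in whole lung. Of 9 tested thymocyte and lymph node genes 0 were separated and 6 had lower means, with a median change of -0.14. Their summed linear level was 1203 and 928 in LN4, 1005 and 1001 in PC3, and 1306 and 1156 in Control lungs, and its part in the B cell values was not tested. Cr2, of B cells and follicular dendritic cells, was at 5.04 and 4.91 in LN4, 5.29 and 5.32 in PC3, and 5.24 and 6.16 in Control lungs.

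Other separated members included surface receptors and signalling genes of the same cells. Fcer2a, the low-affinity IgE receptor, differed by -0.70 (SE 0.21), with PC3 replicate 5 at 6.01 beside Control lungs at 6.10 and 6.18. Ms4a1, which encodes CD20, was at 5.19 and 5.58 in LN4, 5.33 and 5.87 in PC3, and 5.87 and 6.25 in Control lungs. H2-Ob, a B cell chaperone of peptide loading, differed by -0.67 (SE 0.24) and the IgM receptor Fcmr by -0.53 (SE 0.18). Cd37, the kinase Blk and Fcrl1 differed by -0.44 (SE 0.21), -0.42 (SE 0.18) and -0.40 (SE 0.17), with Cd37 at -0.29 without LN4 replicate 3. The median of the list minus the Control mean was -0.39 and -0.65 in the LN4 lungs and -0.33 and -0.25 in the PC3 lungs. Over the 6 left-out arrays the change lay between -0.49 and -0.27, and without LN4 replicate 3 and PC3 replicate 4 it was -0.34, with 11 of 24 below against 8.8% of all genes. Without PC3 replicate 4 alone 11 of 24 lay below, against 6.33% of all genes.

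T cell genes had 6 of 26 tested members below (23.1%) and 0 above, with a median change of -0.15, and 1 of the 26 stood above background. That gene was Cd2, an adhesion receptor of T and NK cells, at 7.92 and 7.67 in LN4, 7.88 and 8.07 in PC3, and 8.34 and 8.36 in Control lungs. The homing receptor Ccr7 differed by -0.41 (SE 0.16), and the factors Tcf7, Lef1 and Gata3 by -0.29, -0.22 and -0.17 (SE 0.15, 0.18 and 0.16), with Lef1 at -0.13 without LN4 replicate 3. Cd8a differed by -0.25 (SE 0.17). NK and cytotoxic genes had 3 of 16 below (18.8%): Gzma, a granule protease, at -0.60 (SE 0.26), Nkg7 at -0.57 (SE 0.21) and Ncr1 at -0.16 (SE 0.16). Only 2 of the 16 stood above background, and Nkg7 and Ncr1 did not. Outside the lists Cd52, a surface glycoprotein of lymphocytes, was at 8.05 and 7.79 in LN4, 7.70 and 8.35 in PC3, and 8.89 and 8.63 in Control lungs, a change of -0.79 (SE 0.23).

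MHC class II and dendritic cell genes had 5 of 23 members below (21.7%) and 0 above, with a median of -0.22. H2-Ab1, a chain of the I-A molecule, was at 10.53 and 9.51 in LN4, 10.04 and 10.48 in PC3, and 10.92 and 10.64 in Control lungs. H2-Eb1 differed by -0.44 (SE 0.27) and H2-Oa by -0.34 (SE 0.19), and Ccr7 and H2-Ob also stand in the T and B cell lists. LN4 replicate 3 was the lowest lung for H2-Ab1 and H2-Eb1, and without it they differed by -0.39 and -0.19 and the list median was -0.08. Alveolar macrophage genes had 3 of 22 below (13.6%), Ear2, Ear1 and Ear10, with a list median of 0.00. Ear2, a ribonuclease, differed by -0.47 (SE 0.16) and the other two by -0.36 (SE 0.15 each). The Ear genes are near-identical copies, so their probe sets may read one another.

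**Figure D3:**
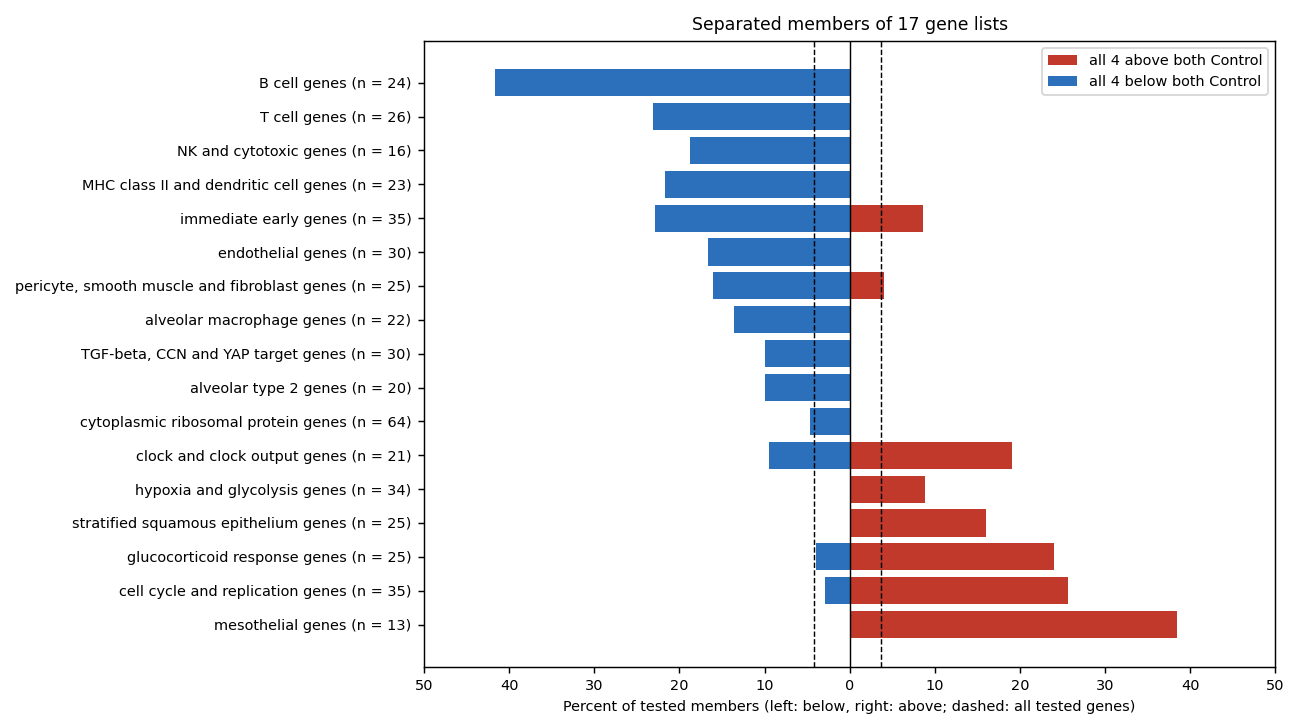
Percent of tested members with all 4 conditioned-medium lungs below (left, blue) or above (right, red) both Control lungs for 17 of the 41 lists, and the shares over all tested genes (dashed, 4.15% and 3.65%). B cell genes reach 41.7% below and mesothelial genes 38.5% above.

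Endothelial genes had 5 of 30 members below (16.7%) and 0 above, with a median change of -0.13. Aplnr, the apelin receptor, was at 7.47 and 7.18 in LN4, 7.40 and 7.61 in PC3, and 7.95 and 7.85 in Control lungs. Cldn5, the tight junction protein of vessels, was at 10.24 and 10.15 in LN4, 10.24 and 10.26 in PC3, and 10.42 and 10.55 in Control lungs. Cdh5, VE-cadherin, differed by -0.27 (SE 0.20), Pecam1 by -0.24 (SE 0.19) and Flt4, the VEGF-C receptor, by -0.25 (SE 0.17). Without LN4 replicate 3 these were -0.13, -0.13 and -0.16. Esm1, a proteoglycan secreted by activated endothelium that was in no list, was at 7.35 and 7.49 in LN4, 7.61 and 7.67 in PC3, and 8.05 and 7.99 in Control lungs, a change of -0.49 (SE 0.15). Without LN4 replicate 3 the list median was -0.06, and 5 of 30 members lay below, against 5.4% of all genes. That count could not fall, because leaving out an array undoes no separation.

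Genes of pericytes, smooth muscle and fibroblasts had 4 of 25 below (16%) and 1 above (the muscle filament gene Des). Collagen and matrix genes had 2 of 32 each way (6.25%, against 4.15% of all genes below and 3.65% above). Pdgfrb, the PDGF receptor of pericytes, was at 8.13 and 7.78 in LN4, 8.32 and 8.51 in PC3, and 8.66 and 8.73 in Control lungs. Mylk, myosin light chain kinase, differed by -0.38 (SE 0.23), Npnt by -0.29 (SE 0.23) and Fgfr4, which was under background, by -0.34 (SE 0.25). LN4 replicate 3 was lowest for these, and without it they differed by -0.20, -0.09 and -0.13, and Des by 0.12. Mfap4 and Lamb1, matrix genes, lay below at -0.41 (SE 0.21) and -0.28 (SE 0.18), and Fbln1 and Col14a1 above at 0.17 (SE 0.15) and 0.28 (SE 0.15). Without LN4 replicate 3 Mfap4 and Lamb1 differed by -0.25 and -0.18. Akap12, a scaffold of protein kinase A in stromal cells, and Cxcl14, a chemokine, had gaps of 0.28 and 0.30 below Control and changes of -0.59 (SE 0.21) and -0.67 (SE 0.25). In Cxcl14 LN4 replicate 3 stood apart at 7.29, with the other conditioned-medium lungs between 8.02 and 8.17 and the Control lungs at 8.69 and 8.47.

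Mesothelial genes, of the cell layer that covers the lung, had 5 of 13 members above (38.5%) and 0 below, with every mean higher and a median change of 0.49. Lrrn4 was at 7.86 and 7.79 in LN4, 8.86 and 8.21 in PC3, and 7.41 and 7.59 in Control lungs. Upk3b, a uroplakin, was at 9.36 and 9.69 in LN4, 10.56 and 9.83 in PC3, and 9.16 and 9.29 in Control lungs. Msln, mesothelin, was at 9.10 and 9.46 in LN4, 10.55 and 9.56 in PC3, and 8.87 and 9.10 in Control lungs. The factor Bnc1 differed by 0.65 (SE 0.26) and Cldn15 by 0.37 (SE 0.22), both under background. PC3 replicate 4, which also held squamous genes, was highest for all 5, and the list's median minus the Control mean was 1.13 there, 0.40 in PC3 replicate 5, and 0.17 and 0.18 in the LN4 lungs. Without that array the change was 0.23, with 5 of 13 above, against 4.84% of all genes. Leaving out an array undoes no separation, so that count could not fall. How much pleura each sample held was not tested. Chst4, a sulfotransferase that was also highest in PC3 replicate 4, was at 7.44 and 7.41 in LN4, 8.51 and 7.51 in PC3, and 6.79 and 7.12 in Control lungs.

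Cell cycle and replication genes had 9 of 35 members above (25.7%) and 1 below, with 32 means higher and a median of 0.23, although only 7 of the 35 stood above background. The 9 include Cdkn1a, a cell cycle inhibitor that was highest in LN4 replicate 3 and also stands in the glucocorticoid list. Uhrf1, which maintains DNA methylation at replication, was at 6.32 and 6.34 in LN4, 6.06 and 6.14 in PC3, and 5.74 and 5.67 in Control lungs. Rrm2, a subunit of ribonucleotide reductase, was at 6.58 and 6.37 in LN4, 6.37 and 6.39 in PC3, and 6.05 and 6.02 in Control lungs. Mcm7, a helicase subunit and with Cdkn1a one of the 2 separated members over background, differed by 0.31 (SE 0.15), and Mcm2 by 0.28 (SE 0.16). The mitotic genes Kif11, Cenpf, Cdk1 and Aurkb differed by 0.51 (SE 0.24; 0.32 without LN4 replicate 3), 0.36 (SE 0.15), 0.35 (SE 0.17) and 0.22 (SE 0.15). Tyms, thymidylate synthase, lay below at -0.20 (SE 0.16). The median was 0.10 in the low-detection and 0.34 in the high-detection pair-up, and 0.11 without LN4 replicate 3. Without that lung 9 members lay above, against 6.76% of all genes, a count that could not fall.

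**Figure D4:**
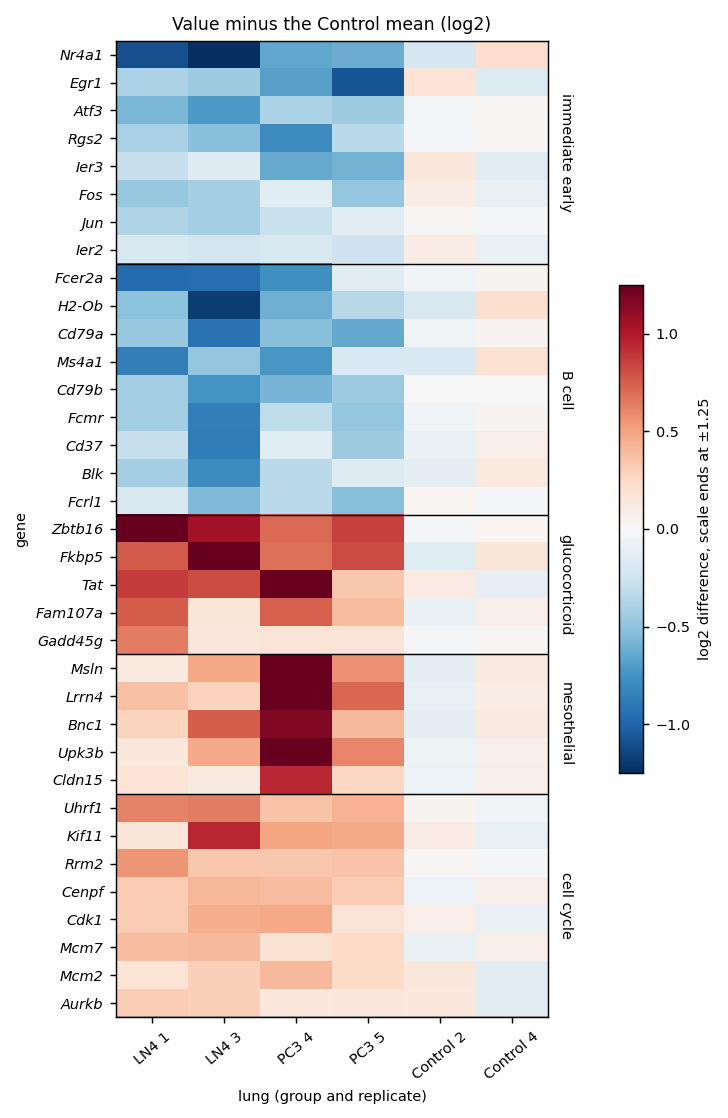
Value minus the Control mean (log2, where differences past the ends of the colour scale share the end colour) for named separated members of 5 lists, with lungs in columns and genes in rows. Cdkn1a, the immediate early members above Control and the members of the glucocorticoid and cell cycle lists below it are left out. Mesothelial rows are darkest in PC3 replicate 4 for all 5 genes, and most B cell rows in LN4 replicate 3.

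Several genes above background stood above Control but in no list. Camsap1, which binds the minus ends of microtubules, was at 7.56 and 7.52 in LN4, 7.50 and 7.46 in PC3, and 7.15 and 7.12 in Control lungs. Its change was 0.38 (SE 0.14), and the 4 conditioned-medium lungs spread over an SD of 0.04. Dolpp1, an enzyme of N-glycan precursor recycling, differed by 0.52 (SE 0.20), the protease Bace2 by 0.51 (SE 0.18), Mmachc, of vitamin B12 handling, by 0.41 (SE 0.17), and Banp by 0.39 (SE 0.16). The ephrin Efnb1 differed by 0.34 (SE 0.15), Tmtc3 by 0.42 (SE 0.16), Rhobtb1 by 0.51 (SE 0.19) and the histone gene H2bc14 by 0.39 (SE 0.15). Slc16a1, a lactate transporter, was at 8.51 and 8.95 in LN4, 9.27 and 8.75 in PC3, and 8.05 and 8.44 in Control lungs.

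Some large changes above Control rested mainly on the array with squamous and muscle genes, though their gaps, set by the lowest conditioned-medium lung, did not. Of 243 separated genes above Control and over background (3.14% of 7734), 25 had a change of at least 1.5-fold, and in 16 of these LN4 replicate 3 lay over 1 log2 unit beyond the other 3 conditioned-medium lungs. A gene counts as over background by its higher group mean, so a high value in that lung can bring a gene both past this filter and past the fold, and the 16 are a description only. Krt5, a basal keratin, was at 5.92 and 12.36 in LN4, 7.43 and 5.56 in PC3, and 5.43 and 5.07 in Control lungs. Actn2, a sarcomere protein, was at 6.84 and 9.40 in LN4, 7.01 and 6.81 in PC3, and 6.50 and 6.49 in Control lungs. Car13, Sptlc3, Ttn and Mb also had LN4 replicate 3 highest, at 10.16, 9.36, 9.83 and 10.58, with Control lungs at no more than 6.22, 6.68, 6.50 and 7.69. Without that lung the changes were 0.96 for Krt5, 0.38 for Actn2, 0.50 for Car13, 0.44 for Sptlc3, 0.30 for Ttn and 0.21 for Mb. Of 34 hypoxia and glycolysis genes 3 were separated above (8.82%, against 3.65% of all genes). Of these, the glycolytic genes Tpi1 and Pgam1 were at 11.13 and 9.67 in LN4 replicate 3, with PC3 replicate 5 at 10.15 and 8.72. P4ha2, a collagen hydroxylase, was the third, at 0.30 (SE 0.18). Without LN4 replicate 3 Tpi1 and Pgam1 differed by 0.20 and 0.12. Below Control, 395 genes over background (5.11%) were separated, 15 of them by at least 1.5-fold. Without both lungs with squamous genes, 2 of the 243 and 7 of the 395 had a change of that size.

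Further genes below Control included Hilpda, a lipid droplet protein, at 7.84 and 7.79 in LN4, 7.43 and 7.62 in PC3, and 8.27 and 8.27 in Control lungs, a change of -0.60 (SE 0.15). The largest change below Control among genes over background, -1.56 (SE 0.38), was that of Usp17ld, a deubiquitinase of a multicopy family. It was at 7.56 and 7.58 in LN4, 7.00 and 6.82 in PC3, and 9.55 and 8.04 in Control lungs, so that much of it came from Control replicate 2. The transcripts AY036118 and Gm15772 differed by -0.96 (SE 0.22) and -0.57 (SE 0.18), and Cox7a2l, of respiratory chain assembly, by -0.54 (SE 0.17). The ribosomal protein list had 3 of 64 members below (4.69%, near the 4.15% of all genes): Rps6, Rps15 and Rps27. Without LN4 replicate 3 it had 20 of 64 below, against 5.4% of all genes. Its median was 0.06 in LN4 and -0.33 in PC3 lungs against the same Control arrays, and Rps15 was at 12.29 and 12.26 in LN4, 11.66 and 11.65 in PC3, and 12.37 and 12.31 in Control lungs. Several ribosomal protein genes have processed copies, so their probe sets may read more than 1 locus.

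The alveolar and airway lists differed in their separated members. Of 20 type 2 genes 2 lay below (10.0%, against 4.15% of all genes) and 17 had lower means, with a median change of -0.16. That median was not shared by both media: it was -0.40 in LN4 and 0.06 in PC3 lungs against the same Control arrays. It was -0.59 in LN4 replicate 3, and without both lungs with squamous genes the change was -0.04. The 2 members below were Lpcat1, a surfactant lipid enzyme, at -0.31 (SE 0.21) and Nkx2-1, the lung lineage factor, at -0.27 (SE 0.21). In both, LN4 replicate 3 stood lowest, at 10.13 and 8.26, and without it they differed by -0.15 and -0.11. None of 16 type 1 genes was separated. Of 23 airway genes only 1 was (4.35%, against 4.15% of all genes). It was Scgb3a2, a secretoglobin, at 12.55 and 11.17 in LN4, 12.32 and 12.21 in PC3, and 12.57 and 12.62 in Control lungs, a change of -0.19 without LN4 replicate 3.

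Thbs1 and Psap, the genes the study is known for, were not separated. Thbs1, thrombospondin-1, was at 9.21 and 8.98 in LN4, 9.58 and 9.95 in PC3, and 9.50 and 9.88 in Control lungs: the LN4 lungs lay below both Control lungs and the PC3 lungs overlapped them. Psap, prosaposin, was at 11.99 and 11.98 in LN4, 12.36 and 12.27 in PC3, and 12.05 and 12.24 in Control lungs, with the 2 media on opposite sides. LN4 minus PC3 was -0.67 (SE 0.23) for Thbs1 and -0.33 (SE 0.17) for Psap, and limma gave both an adjusted p of 0.842. The receptors Cd36 and Cd47 differed from Control by -0.09 (SE 0.18) and -0.20 (SE 0.16), and Adamts1 by -0.52 (SE 0.19), none separated. Of the 13 genes in that list 0 were separated, and of 26 tested premetastatic niche genes 1 was, Csf3, which lies above (3.85%, against 3.65% of all genes). Csf3 was under background, at 5.47 and 5.21 in LN4, 4.97 and 5.17 in PC3, and 4.79 and 4.88 in Control lungs. The neutrophil genes S100a8 and S100a9 overlapped too: S100a8 was at 7.57 and 8.05 in LN4, 6.32 and 7.03 in PC3, and 7.35 and 8.54 in Control lungs. Of 20 tested neutrophil genes 1 lay below (5.0%, against 4.15% of all genes) and 1 above (5.0%, against 3.65%). These were Retnlg at -0.55 (SE 0.19) and Trem1 at 0.33 (SE 0.16), both under background.

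Whether the media differed from each other was tested in the same fit. For LN4 minus PC3, 0 of 21330 probe sets (0.0%) reached an adjusted p of 0.05, whereas 1094 (5.13%) were under 0.05 before adjustment. Without LN4 replicate 1, 715 passed. Among the separated genes over background, 3 of 243 above and 6 of 395 below had an unadjusted p under 0.05 for this difference in limma. The rule used the same values and kept only genes with both media on one side of Control. These counts therefore cannot show that the media agree. The change against Control was larger in LN4 than in PC3 lungs for 165 of the 243 and for 257 of the 395. In the same genes LN4 replicate 3 was the outermost of the 4 conditioned-medium lungs in 140 and in 234.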

How the data were processed

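Lung RNA of 6 mice was labelled and hybridised to 6 Affymetrix mouse gene arrays (MoGene-1_0-st-v1, per the file headers). The authors deposited log2 expression values. The submitters' processing notes name RMA, with software and version not given in the sources used here. RMA equalises the arrays' distributions, so each value depends on all arrays. The series' value table differed by over 0.0001 in 0 of 35556 probe sets. The share of detected exon-level probe sets is a percent column of a chip report, per the file headers. For arrays the number of arrays sets the precision.

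After 7116 control probe sets were set aside, the dimmest 25% by mean were dropped, which left 21330. Symbols were updated by accession (22271), symbol (1412) or synonym (557) through the RefSeq table of GRCm38.p6. Each of 17011 genes had its brightest probe set. "Above background" means that the higher of the 2 group means exceeded 7.47, the 95th percentile of the negative controls. Limma 3.58.1 (R 4.3.3) fitted 3 group means to all arrays (residual degrees of freedom 3, prior 3.885), with Benjamini-Hochberg adjustment. With 2 mice per group, a p-value sets a change against the spread within groups, pooled over these lungs and drawn towards that of all probe sets. Genes were named by rule: the 12 widest gaps and the 12 smallest p-values in each direction, up to 4 separated members of each list and way, and Thbs1 and Psap; the remaining named genes, among them Klf9, Tsc22d3, Per1, Dusp1, Cd36, Cd47, Adamts1, S100a8 and list members past the fourth, were chosen after their values were seen. Members, lists and tests were chosen with earlier results of these data known, and patterns already seen then (among them the low B cell and immediate early genes and the high glucocorticoid and mesothelial genes) are no independent support.

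On simulated arrays of this comparison with 21330 probe sets and the spread of all 6 arrays, 26 of 100 probe sets changed by 1 and 83 of 100 changed by 2 (log2) were recovered, and 7 unchanged ones were called. When noise was drawn from the Control pair alone, recovery was 61 and 84 of 100, and 4 unchanged ones passed. Python 3.11.15 and matplotlib 3.10.9 drew the figures. Some genes counted in the lists are not reported here by name.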

Additional observations from a re-analysis of the deposited data

Results flagged for a closer look

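Among the 4 conditioned-medium lungs, 21 of 132 genes examined had 1 lung whose gap to its nearest neighbour divided by the whole range exceeded Dixon's 95% critical value, which chance passes in about 1 of 20 groups. The 132 genes were chosen from these same data, and the share of all tested genes past that value is not given. Whether 21 of 132 is an excess is therefore not known. The ratio of gap to range follows each gene. LN4 replicate 3, the lung with squamous and muscle genes, was the high one for Myc (0.98), Krt6a (0.962), Sptlc3 (0.958), Mb (0.948), Ttn (0.938), Actn2 (0.924), Cdkn1a (0.917), Nr1d1 (0.897), Dsc2 (0.889), Car13 (0.879) and Mybpc2 (0.856). It was the low one for Npnt (0.949), Lpcat1 (0.947), Nkx2-1 (0.887), Klf9 (0.876), Per1 (0.863) and Cxcl14 (0.83). LN4 replicate 1 was the high one for Gadd45g (0.953) and Rrm2 (0.887). PC3 replicate 4 was high for Chst4 (0.91) and low for Rps6 (0.941). For 2 genes both LN4 lungs lay below the Control mean and both PC3 lungs above it. LN4 minus PC3 was -0.93 for Dusp1 and -0.33 for Psap, with adjusted p of 0.842 in the limma fit for both.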

How the results depend on the processing

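No paired analysis was possible because by replicate number PC3 and Control lungs share only replicate number 4 and LN4 shares none with either. A block on detection, a grouping that comes from the chip report and not from the labels, gave 0 adjusted and 571 unadjusted calls, against 249 without it. Leaving out each array in turn gave 0 to 427 adjusted calls for both media against Control and 0 to 715 for LN4 minus PC3, in both cases the highest without LN4 replicate 1. The number of probe sets above both Control arrays then ranged from 974 to 3033 and of those below from 1277 to 2932, a count that grows by construction with fewer arrays. Without PC3 replicate 4 and LN4 replicate 3, where 1 residual degree of freedom and a prior of 85 rest on the Control pair, 68 and 2593 probe sets passed, and 1901 lay above and 1988 below. With no filter on mean level 1078 lay above, and with the lowest 50% left out 468. The other settings gave 0 adjusted calls in limma: no filter, a stricter filter, 2 groups, a detection block, array weights, a robust trend and median centring. Of 132 genes examined under 14 alternatives, 1799 of 1830 values kept direction and side of the threshold, 24 passed it, and 7 changed sign, for which the cause was not tested. Psap became -0.0060 with median centring, -0.011 without both arrays with squamous genes, and ranged from -0.087 to 0.106 over the left-out arrays (-0.014 without PC3 replicate 4). Over the same arrays Tsc22d3 ranged from -0.0018 to 0.450, Per1 from -0.422 to 0.017 and Cd36 from -0.233 to 0.052. Of 574 list medians 17 moved by more than the spread between replicates. The counts of list members without the arrays with squamous genes were added after seeing the data. Genes near background may understate a difference.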
